A study of Mus musculus with 19 samples.

Results

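Complement is a cascade of plasma proteins that tags and lyses targets and recruits immune cells, and many of its components are also made inside tissues by macrophages and fibroblasts. In the classical pathway, C1q, built of the chains encoded by C1qa, C1qb and C1qc, binds the target and activates the serine proteases C1r and C1s, which cleave C4 and C2 to form an enzyme that splits C3. The small fragment C3a acts through the receptor encoded by C3ar1, and a fragment of C4, the protein encoded by C4b, joins the splitting enzyme. The C1 inhibitor encoded by Serping1 blocks C1r, C1s and the related lectin-pathway proteases. The 7 genes C1qa, C1qb, C1qc, C3, C4b, C3ar1 and Serping1 were described here in the pressure-overloaded mouse heart. They were chosen by symbol, through array probe sets that carry exactly 1 gene symbol. By this rule 5 of the 7 were measured, with 9 probe sets, and all 5 genes and all 9 probe sets passed the filter on low signal, among 10733 genes tested in all. C3 and C4b were not analysed here; the 1 listed probe set for C4b carries several symbols.

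RNA of the left ventricle from 19 male C57BL/6 mice was hybridised to Affymetrix arrays, 1 array per mouse. The groups were 7 mice with aortic banding and heart failure, 7 mice with aortic banding without heart failure, and 5 sham-operated mice. Banding narrows the aorta, so that the left ventricle works against a raised pressure. Surgery was done at 7 weeks of age, and ventricles freed of atria and right ventricle were frozen 4 weeks afterwards. The labels name no genetic change, and they do not say by which criterion heart failure was called. Values below are log2 signals as deposited, changes are differences of group means on that scale, and a change was called where its limma p, adjusted over all 10733 genes, was under 0.05. In RNA of whole ventricle, fewer cells of a type and less RNA per cell cannot be told apart.

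Among the 5 measured genes, only Serping1 passed the test, and only in the hearts with heart failure against sham, where it was 1.63-fold higher. The C1q chains and C3ar1 passed it in none of the 3 comparisons. Of the 18 other pathway genes tested, 7 were called in failing hearts against sham, where 39.3% of all genes were called, so their share was near the background. C1ra and C1s1, the target proteases of the C1 inhibitor, and Masp1, a protease gene of the lectin pathway, rose. The C1s1 call was close to the threshold and held in 10 of 19 fits that each left out 1 mouse. The lectin genes Fcna and Colec11, the C1q-binding protein gene C1qbp and the lysis inhibitor gene Cd59a fell, although the Fcna call was lost without sham mouse 3. Complement genes called in this comparison, Serping1 included, numbered 8. With adjustment for 2 array controls described below, 3 were called with an 18S block and 2 with an actin covariate. Serping1 was called with neither.

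A single sham mouse stood apart for these genes. Sham mouse 3 had the highest signal of all 19 arrays for C1qa, C1qb and C1qc, the second highest for C3ar1 and the fourth highest for Serping1. It was the highest array for 11 of the 23 complement genes tested (47.8%), beside 814 of all genes tested (7.58%). Its mean log2 signal over 18 macrophage markers was 9.46, against 8.17 to 8.82 in the other 4 sham mice, and over 4 leukocyte, monocyte and neutrophil markers it was 8.71, against 5.02 to 6.73. Results that rest on it are therefore given with and without it. The signal of an 18S rRNA control probe set also divided the arrays into a high set of 6, made of banded mice without heart failure 5 to 7 and sham mice 1 to 3, and a low set of 13 that held all mice with heart failure. The 3′ minus 5′ difference of the actin control probe sets, a sign of RNA integrity, lay between 0.66 and 0.91 in mice with heart failure, between 0.67 and 0.90 in banded mice without heart failure and between 0.94 and 1.02 in sham mice, with the banded mice entirely below the sham mice.

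The C1q chain genes C1qa, C1qb and C1qc all lie on chromosome 4, and C3ar1 lies on chromosome 6. The promoter windows of C1qb, C1qc and C3ar1 in RefSeq (build GRCm38.p6, from 250 bases before to 50 bases after the gene start) are shown because immune-cell genes were among the genes nearest to each of the 3 in signal; C1qa and Serping1 were not matched in the table. All 3 genes lie on the minus strand, and the windows are printed 5′ to 3′ along the gene. Capitals mark the motif GAGGAA, the core of purine-rich sites bound by the myeloid factor PU.1, on either strand; it was searched with TTCNNNGAA, GAAANNGAA, TTGCNNNAA and TATAAA.
C1qb, chr4:136886151-136886450: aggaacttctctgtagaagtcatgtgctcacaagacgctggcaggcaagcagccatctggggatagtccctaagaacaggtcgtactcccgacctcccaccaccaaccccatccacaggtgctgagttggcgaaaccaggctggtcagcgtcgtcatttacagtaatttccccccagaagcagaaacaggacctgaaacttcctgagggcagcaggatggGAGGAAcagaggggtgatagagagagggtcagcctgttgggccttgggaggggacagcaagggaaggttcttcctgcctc
C1qc, chr4:136892865-136893164: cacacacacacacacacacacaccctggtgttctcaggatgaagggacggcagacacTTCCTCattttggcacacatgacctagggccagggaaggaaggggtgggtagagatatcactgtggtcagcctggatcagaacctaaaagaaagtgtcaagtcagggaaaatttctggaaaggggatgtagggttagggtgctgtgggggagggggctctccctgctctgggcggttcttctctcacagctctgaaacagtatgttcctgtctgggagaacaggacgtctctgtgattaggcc
C3ar1, chr6:122856108-122856407: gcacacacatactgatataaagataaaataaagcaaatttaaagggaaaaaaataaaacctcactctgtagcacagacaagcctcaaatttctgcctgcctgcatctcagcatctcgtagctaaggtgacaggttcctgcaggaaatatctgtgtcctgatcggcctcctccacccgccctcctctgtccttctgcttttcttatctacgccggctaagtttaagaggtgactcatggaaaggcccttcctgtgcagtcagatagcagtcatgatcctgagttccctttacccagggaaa
The C1qb window held GAGGAA 30 bases before the start, and the C1qc window held it on the opposite strand, as TTCCTC, 193 bases before the start. The C3ar1 window held no GAGGAA and had TATAAA 235 bases before the start. Matches of this kind are common: of 32851 promoter windows of the same length, 28.3% held GAGGAA on either strand and 13.6% held TATAAA. The motifs TTCNNNGAA, GAAANNGAA and TTGCNNNAA, held by 8.30%, 8.56% and 9.56% of all windows, were in none of these 3. A match describes the letters only.

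C1qa was measured by 1 probe set at a high signal in every heart. In mice with heart failure its log2 signal ran from 10.10 over a median of 10.50 to 11.02, in banded mice without heart failure from 10.38 over 10.53 to 10.69, and in the 5 sham mice it was 10.83, 10.18, 11.38, 10.22 and 10.67. The sham mice spanned a wider range than either banded group, and the groups overlapped. C1qa averaged 10.53 ± 0.29 in failing hearts (SD, n = 7), 10.54 ± 0.12 in banded hearts without failure (n = 7) and 10.66 ± 0.49 in sham hearts (n = 5). The change was -0.12 ± 0.17 (SE) in heart failure against sham (limma adjusted p = 0.598, 95% interval -0.48 to 0.24), -0.12 in banding without heart failure against sham (adjusted p = 0.680) and -0.01 between the banded groups (adjusted p = 0.982). Without sham mouse 3, the C1qa change against sham turned to 0.06 in each banded group.

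C1qb, the second chain, was represented by 3 probe sets, and the brightest stood for the gene. Its log2 signal ran from 10.43 over 10.96 to 11.16 in mice with heart failure and from 10.46 over 10.64 to 11.15 in banded mice without heart failure. The sham mice had 11.32, 10.83, 11.97, 10.32 and 10.42. Sham mice 1 to 3, of the high 18S set, all lay above sham mice 4 and 5. The change was -0.06 ± 0.22 in heart failure against sham (limma adjusted p = 0.863, 95% interval -0.52 to 0.41), -0.28 in banding without heart failure against sham (adjusted p = 0.421) and 0.22 between the banded groups (adjusted p = 0.531).

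For C1qb the array set mattered. Within the low 18S set, C1qb averaged 10.91 in 7 failing hearts, 10.57 in 4 banded hearts without failure and 10.37 in 2 sham hearts, and every failing heart lay above both sham hearts. A fit on that set alone called the difference of 0.54 between failing and sham hearts (limma adjusted p = 0.0281), where 24.9% of all genes were called. With the 18S set as a block over all arrays the difference was 0.29 (adjusted p = 0.302), and without sham mouse 3 it was 0.19 (adjusted p = 0.425). Over all arrays the other C1qb probe sets gave -0.20 and -0.06 in failing hearts against sham. None of the 3 was called in any comparison there. By the former, a sham heart of the low set had 10.79, within the 10.31 to 11.15 of failing hearts. By the latter, the low-set sham hearts had 8.57 and 8.46, below the 8.79 to 9.41 of failing hearts. The low-set fit was not run on these probe sets, and the share of all genes separated in this way was not counted.

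C1qc, the remaining chain, was measured by 1 probe set. Its log2 signal ran from 9.18 over 9.63 to 10.04 in mice with heart failure, from 9.42 over 9.75 to 9.87 in banded mice without heart failure, and was 9.84, 9.16, 10.39, 9.32 and 9.76 in the sham mice. The groups overlapped throughout. Its changes were -0.11 ± 0.18 in heart failure against sham (limma adjusted p = 0.652), -0.03 in banding without heart failure against sham (adjusted p = 0.929) and -0.08 between the banded groups (adjusted p = 0.801). The 95% interval for failing against sham hearts ran from -0.48 to 0.26, so changes within that range were compatible with these arrays.

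**Figure D1:**
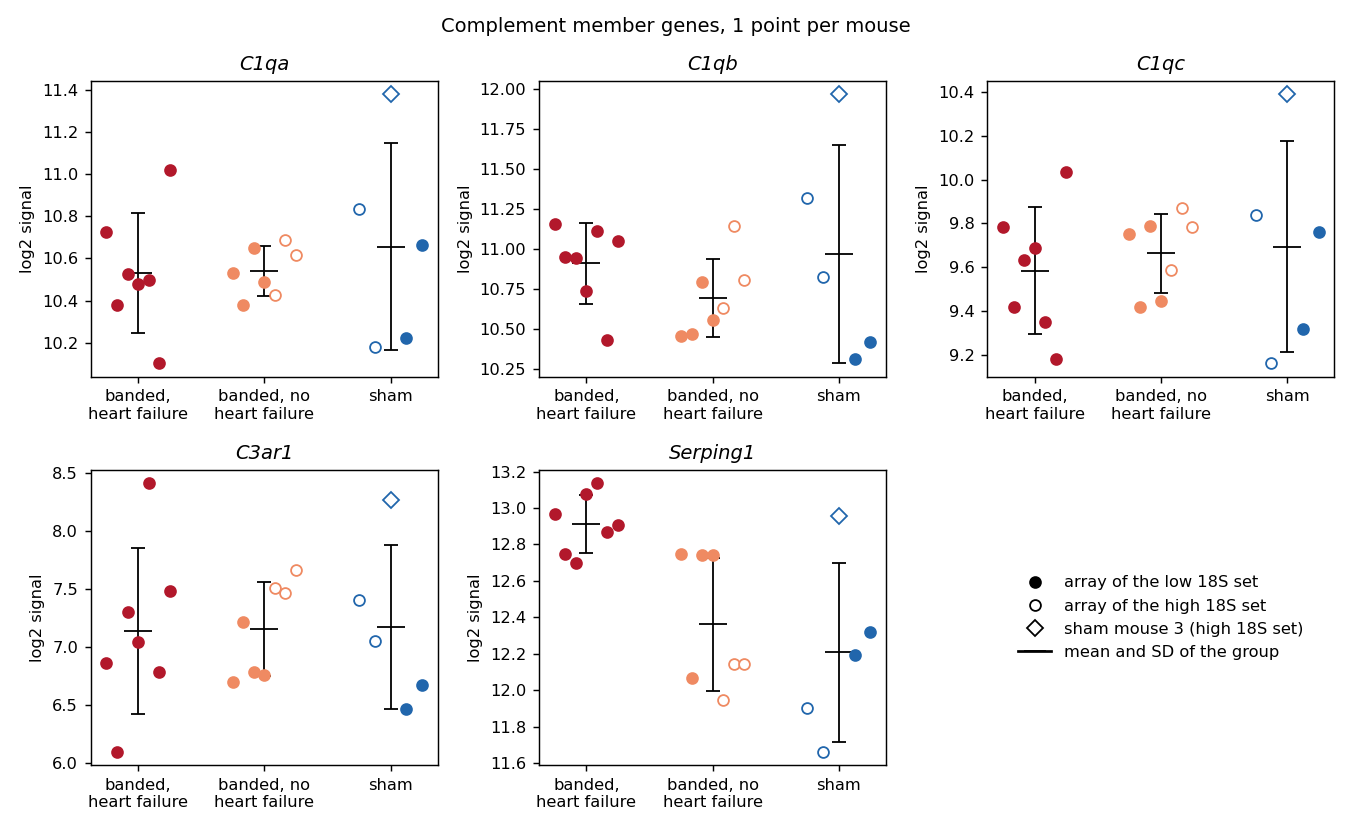
Log2 signal of C1qa, C1qb, C1qc, C3ar1 and Serping1 in each mouse, by group (banded with heart failure, banded without heart failure, sham); bars give the mean and SD of the group, open symbols the high 18S set and the diamond sham mouse 3. Sham mouse 3 is the highest point for the 3 C1q chains, and the 7 failing hearts lie between 12.70 and 13.14 for Serping1.

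C3ar1, the receptor for C3a, had 3 probe sets and the widest spread within each group of the 5 genes. Its log2 signal ran from 6.10 over 7.04 to 8.41 in mice with heart failure, from 6.70 over 7.21 to 7.66 in banded mice without heart failure, and was 7.41, 7.05, 8.26, 6.47 and 6.67 in sham mice. The highest heart was failing heart 5 and the next was sham mouse 3, and the groups overlapped. Failing heart 5 also had the highest mean of the leukocyte, monocyte and neutrophil markers of all arrays, at 8.86; the part of such cells in its C3ar1 signal was not tested.

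None of the C3ar1 changes passed the test. C3ar1 averaged 7.14 ± 0.71 in failing hearts, 7.16 ± 0.41 in banded hearts without failure and 7.17 ± 0.71 in sham hearts (SD). The change was -0.03 ± 0.33 in heart failure against sham (limma adjusted p = 0.952), with a 95% interval of -0.73 to 0.67. Folds of 0.60 to 1.59 were thus compatible with these arrays. The change was -0.02 in banding without heart failure against sham (adjusted p = 0.979) and -0.01 between the banded groups (adjusted p = 0.982).

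C3ar1 also differed between the 18S sets among the mice without heart failure. Among banded mice without heart failure, the 3 of the high set lay at 7.46 to 7.66 and the 4 of the low set at 6.70 to 7.21, without overlap. Among sham mice, the high set held 7.05 to 8.26 and the low set 6.47 and 6.67. The share of all genes split in this way was not counted. The high-set mice also had the lowest animal numbers in the labels of their groups, so 18S set and numbering cannot be told apart here. The failing hearts, all of the low set, ran from 6.10 to 8.41. Within the low set, C3ar1 was 0.57 higher in failing than in sham hearts (limma adjusted p = 0.345), and with the 18S set as a block over all arrays the difference was 0.46 (adjusted p = 0.310). The dimmer C3ar1 probe sets gave 0.14 and -0.54 in failing hearts against sham, and neither was called.

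Serping1 was measured by 1 probe set. The 7 failing hearts had 12.96, 12.74, 12.70, 13.07, 13.14, 12.87 and 12.90 on the log2 scale, with a median of 12.90. The banded hearts without failure ran from 11.95 over a median of 12.14 to 12.75, and the sham hearts had 11.90, 11.66, 12.96, 12.19 and 12.32. All 7 failing hearts lay above the sham median, 3 of them above every sham heart, and all 7 above the 4 sham hearts other than sham mouse 3. The banded hearts without failure fell into 3 at about the level of the lowest failing hearts, all of the low 18S set, and 4 at sham levels, which included all 3 banded mice of the high 18S set.

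Serping1 averaged 12.91 ± 0.16 in failing hearts, 12.36 ± 0.36 in banded hearts without failure and 12.21 ± 0.49 in sham hearts (SD, n = 7, 7 and 5). It rose in failing hearts against sham by 0.71 ± 0.19 (SE), a fold of 1.63 with a 95% interval of 1.24 to 2.15 (limma adjusted p = 0.00686). It was the 1 of 5 measured members called in that comparison, in which 39.3% of all genes tested were called, 20.4% higher and 18.9% lower. In banded hearts without failure the change was 0.15 ± 0.19 (adjusted p = 0.615), and 0 of 5 members were called, beside 17.4% of all genes. The lowest unadjusted limma p of a member in that comparison was 0.230, for C1qb.

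Failing hearts lay 0.55 ± 0.17 above banded hearts without failure for Serping1, a fold of 1.47, with a limma adjusted p of 0.0532 that just missed the threshold. There too 0 of 5 members were called, beside 9.48% of all genes, and Serping1 alone had an unadjusted limma p under 0.05, at 0.00518. All 7 failing hearts lay above the median of the banded hearts without failure, and 5 of them above the highest. Exact two-sided permutation tests of Serping1 gave p = 0.0126 for failing against sham hearts and p = 0.00466 between the banded groups, where the smallest possible values were 0.00253 and 0.000583. Adjusted over the 15 member tests, these were 0.0947 and 0.0699, so neither passed.

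Sham mouse 3 narrowed the Serping1 difference. Without it, the lowest failing heart (12.70) lay above the highest of 4 sham hearts (12.32), the change was 0.89 (limma adjusted p = 0.000567), and that between the banded groups, 0.55, was then called (adjusted p = 0.0243). These fits called 35.2% and 8.91% of all genes. The share of all genes with every failing heart above these 4 sham hearts was not counted, and sham mouse 3 was singled out from values of these same genes. With the 18S set as a block the change against sham was 0.51 and not called (adjusted p = 0.0694), and with the actin difference as a covariate it was 0.45 and not called (adjusted p = 0.231). Within the low 18S set, which held 7 failing and 2 sham hearts, it was 0.66 and called (adjusted p = 0.0142). The animal numbers in the labels form 3 series, and within them failing hearts lay 0.68, 0.70 and 0.65 above sham. Series 2 and 3 had 1 sham heart each. In series 1 all failing hearts were of the low 18S set and all sham hearts, mouse 3 among them, of the high set. The difference in series 1 therefore cannot be told apart from that between the 18S sets.

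**Figure D2:**
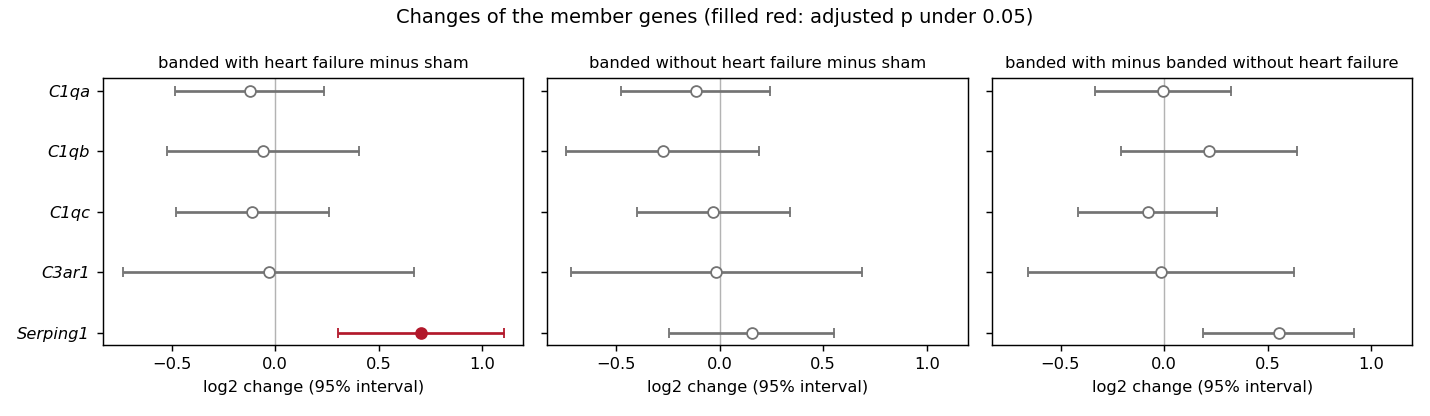
Log2 change of the 5 member genes with its 95% interval in the 3 comparisons; filled red marks an adjusted p under 0.05. Serping1 in heart failure against sham, at 0.71, is the only filled point.

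The 5 genes did not vary as 1 block. After group means were removed, C1qa and C1qc had a Pearson r of 0.96 over the 19 arrays, and 0.93 without sham mouse 3. C1qb followed them less closely, with r = 0.79 to C1qa and 0.70 to C1qc, and 0.62 and 0.49 without that mouse. C3ar1 had r = 0.52, 0.65 and 0.41 to C1qa, C1qb and C1qc, and 0.30, 0.49 and 0.16 without it. Serping1 had r = 0.50 to C1qa, 0.25 to C1qb, 0.46 to C1qc and 0.11 to C3ar1, and 0.18, -0.29, 0.15 and -0.28 without it. C1qc was thus about as near to Serping1 as to C3ar1, and C1qb about as near to C3ar1 as to C1qc. The points share arrays, normalisation and the 18S sets, so these values describe the mice and carry no test.

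The genes most like each member, out of 10732 others and by the same measure, differed between the members. For C1qa they were C1qc, the high-affinity antibody receptor gene Fcgr1 (r = 0.90) and Cfp, the gene of properdin (0.89). For C1qb they were B3galnt1, the leukocyte surface gene Cd53 and Alox5ap, a leukotriene synthesis gene, each at 0.91. C1qc was nearest to C1qa, the macrophage marker Cd68 (0.90) and Cfp (0.88). C3ar1 was nearest to the myeloid lectin gene Clec4a3 (0.91), the antibody receptor chain gene Fcer1g (0.90) and Ikzf1, a blood-cell transcription factor (0.90). Without sham mouse 3, C1qa had 0.82 to Fcgr1 and 0.82 to Cfp, and C1qc had 0.84 to Cd68 and 0.83 to Cfp. Without that mouse, C1qb had 0.84, 0.82 and 0.83 to its 3 genes in the order named, and C3ar1 had 0.89, 0.87 and 0.86. Serping1 was nearest to C1ra (0.88), C1s1 (0.88) and Sulf2, an enzyme that trims heparan sulphate (0.85), and without sham mouse 3 these were 0.82, 0.80 and 0.85.

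C1ra and C1s1 encode the proteases of the C1 complex, the targets of the C1 inhibitor. C1ra had 9.04, 8.73, 8.37, 8.79, 8.83, 8.55 and 8.60 in failing hearts, 7.46 to 8.64 in banded hearts without failure, and 7.15, 6.89, 9.13, 7.78 and 7.37 in sham hearts. As for Serping1, all failing hearts lay above the sham hearts other than sham mouse 3, which was the highest of all 19. The share of all genes separated in this way was not counted. C1ra rose by 1.04 ± 0.29 in failing hearts against sham, a fold of 2.05 (limma adjusted p = 0.00777). In banded hearts without failure the change was 0.35 (adjusted p = 0.430), and between the banded groups 0.69 (adjusted p = 0.102). Without sham mouse 3 the 3 changes were 1.40, 0.72 and 0.69, all called (adjusted p = 3.74e-05, 0.0224 and 0.0186), and with the actin covariate none was.

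C1s1 had 9.32 to 9.99 in failing hearts, 8.60 to 9.70 in banded hearts without failure, and 8.53, 8.63, 10.15, 8.77 and 8.65 in sham hearts. Sham mouse 3 was again the highest heart, and the other 4 sham hearts lay below every failing heart, a separation whose share over all genes was not counted. C1s1 rose by 0.68 ± 0.26 in failing hearts, a fold of 1.60, close to the threshold (limma adjusted p = 0.0416). Leaving out 1 mouse at a time kept the call in 10 of 19 fits, with adjusted p from 0.000914 to 0.113, the lowest without sham mouse 3, where the change was 0.98. With blocks for the 18S set or the series of animal numbers it was not called (adjusted p = 0.175 and 0.0689). Mice carry near-identical copies, C1rb and C1s2, whose transcripts a probe set may share, so the assignment to C1ra and C1s1 is uncertain.

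**Figure D3:**
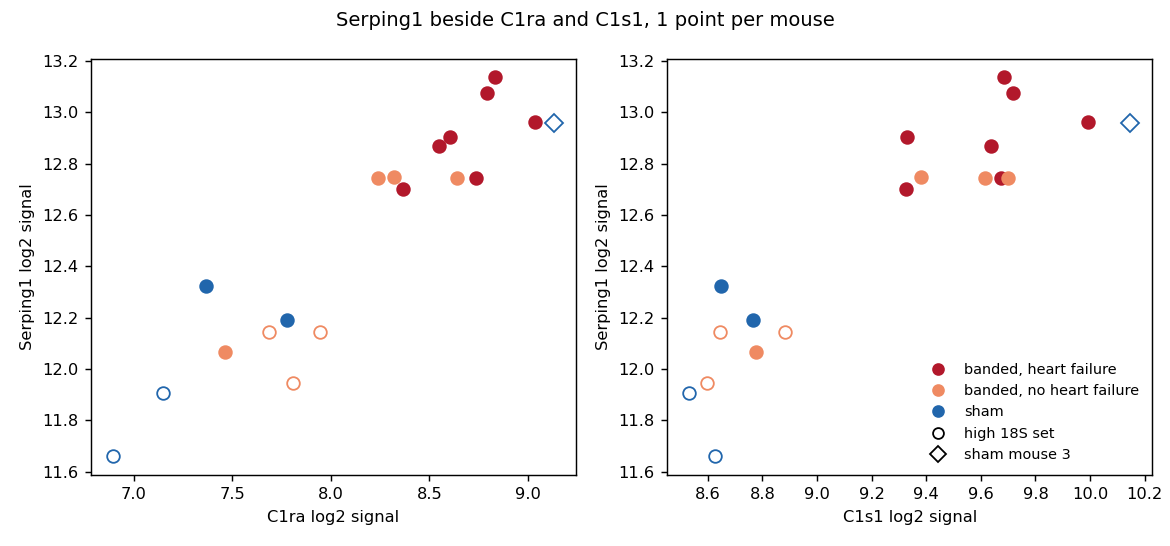
Log2 signal of Serping1 (vertical) against C1ra and C1s1 (horizontal), 1 point per mouse, coloured by group; open symbols mark the high 18S set and the diamond sham mouse 3. Sham mouse 3, at 12.96 for Serping1, lies among the failing hearts. The other 4 sham hearts lie below every failing heart for all 3 genes and overlap the banded hearts without failure. The share of all genes separated in this way was not counted.

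Of 57 complement genes on a list of the wider pathway, 46 had a probe set with 1 symbol and 23 passed the filter, the 5 members among them. In failing hearts against sham, 3 of the 18 others were called higher and 4 lower, beside the 39.3% of all genes called. Their median change was -0.02, against 0.01 over all genes. In banded hearts without failure 0 of 18 were higher and 1 was lower, beside 17.4% of all genes called in either direction. Between the banded groups the counts were likewise 0 and 1, beside 9.48% of all genes.

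Among the initiators, 8 genes were tested, and in failing hearts C1ra, C1s1 and Masp1 were higher and Fcna and Colec11 lower. Masp1, whose proteases are activated by lectins that bind sugars, had 8.43 to 9.93 in failing hearts, 8.41 to 9.38 in banded hearts without failure, and 8.54, 8.37, 8.38, 8.20 and 7.80 in sham hearts. Unlike the proteases of C1, it was not raised in sham mouse 3, and 6 of 7 failing hearts lay above every sham heart. The share of all genes separated to this degree was not counted. It rose by 0.84 ± 0.22 in failing hearts, a fold of 1.79 (limma adjusted p = 0.00513). In banded hearts without failure the change was 0.60 (adjusted p = 0.0656), which passed with the 18S set as a block, at 0.69 (adjusted p = 0.0118). The call in failing hearts held in all 19 fits without 1 mouse and with each block, while a dimmer Masp1 probe set gave 0.70 and was not called (adjusted p = 0.0735).

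Of 6 lectin genes among the initiators, Colec11 and Fcna passed the filter, and both were called lower in failing hearts against sham. Colec11, a collectin, averaged 10.07 ± 0.17 in failing hearts, 10.43 ± 0.21 in banded hearts without failure and 10.43 ± 0.16 in sham hearts. It fell by 0.36 in failing hearts against sham (limma adjusted p = 0.0122) and by 0.35 against banded hearts without failure (adjusted p = 0.0295), the only complement gene tested that was called between the banded groups. With the 18S set as a block these were 0.0681 and 0.0768 and no longer passed. Without single mice, the call against sham held in 19 of 19 fits and that between the banded groups in 13 of 19. A dimmer Colec11 probe set gave -0.22 and -0.29 and was called in neither comparison (limma adjusted p = 0.140 and 0.112). Fcna, a ficolin made by macrophages, had 3.49 to 5.87 in failing hearts, 4.31 to 4.73 in banded hearts without failure, and 5.99, 4.97, 7.08, 4.64 and 5.10 in sham hearts. It was called lower in failing hearts (adjusted p = 0.0185), where 3 of 7 arrays lay under the filter, so no fold is given, and without sham mouse 3 the call was lost (adjusted p = 0.0658).

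The middle and the end of the cascade gave few measurements. Of the convertase components only Cfb and Cfp were tested, and neither was called in any comparison. Cfb, factor B of the alternative pathway, had 5.66 to 6.31 in failing hearts, against 8.79 in sham mouse 3 and 4.51 to 5.66 in the other sham hearts. The same value of 5.66 stood in 8 of the 19 arrays, 4 of them failing hearts, so no Cfb change is given. Of the terminal pathway, 6 of 7 genes had a probe set and 0 passed the filter.

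Among 7 receptor and binding-protein genes tested, C1qbp alone was called by the brightest probe set of each gene. C1qbp, a mitochondrial protein that also binds C1q, averaged 13.06 ± 0.09 in failing hearts, 13.26 ± 0.12 in banded hearts without failure and 13.34 ± 0.15 in sham hearts. It fell by 0.27 in failing hearts against sham (limma adjusted p = 0.00702), but with the 18S set as a block it did not pass (adjusted p = 0.0839), and its other probe set gave 0.02. C5ar1, the receptor for C5a, changed by -0.00 ± 0.39 in failing hearts (adjusted p = 0.999), and Itgb2, an integrin gene of complement receptor CR3, by 0.02 (adjusted p = 0.962). Itgam, the partner of Itgb2 in that receptor, lay under the filter in 2 of 7 failing and 4 of 5 sham hearts, so no change is given, and failing heart 5 had 7.12 against 3.55 to 5.03 in the other failing hearts. Cd93, a receptor gene once proposed to bind C1q, had 4 probe sets. Only 1 of them was called in banded hearts without failure against sham, at 0.67 (limma adjusted p = 0.0473), while the brightest gave 0.23 (adjusted p = 0.401) and another 0.52 (adjusted p = 0.0650), each in the fit over all probe sets.

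Among 6 regulators, Serping1 was called higher and Cd59a lower. Cd59a, which encodes a membrane protein that blocks the lytic complex, had 10.33 to 10.64 in failing hearts, 10.37 to 10.64 in banded hearts without failure, and 10.90, 10.82, 10.93, 10.76 and 10.71 in sham hearts. Every banded heart lay below every sham heart, a separation shared by 9.06% of all genes in failing hearts and by 3.04% in banded hearts without failure, counted in that direction. It fell by 0.36 in failing hearts (limma adjusted p = 0.00041) and by 0.35 in banded hearts without failure (adjusted p = 0.00164), 2 comparisons that share the sham mice. A second Cd59a probe set gave -0.24 and -0.38 (adjusted p = 0.0993 and 0.0272). By the brightest probe set of each, Clu, Vtn, Cd55 and Cr1l were not called in any comparison, Vtn with the lowest adjusted p, 0.0530, at -0.35 in failing hearts against sham. For Clu, which encodes the fluid-phase inhibitor clusterin, 1 of 4 probe sets was called in failing hearts against sham, at 0.38 (adjusted p = 0.0238), and the other 3 gave 0.12 to 0.23.

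**Figure D4:**
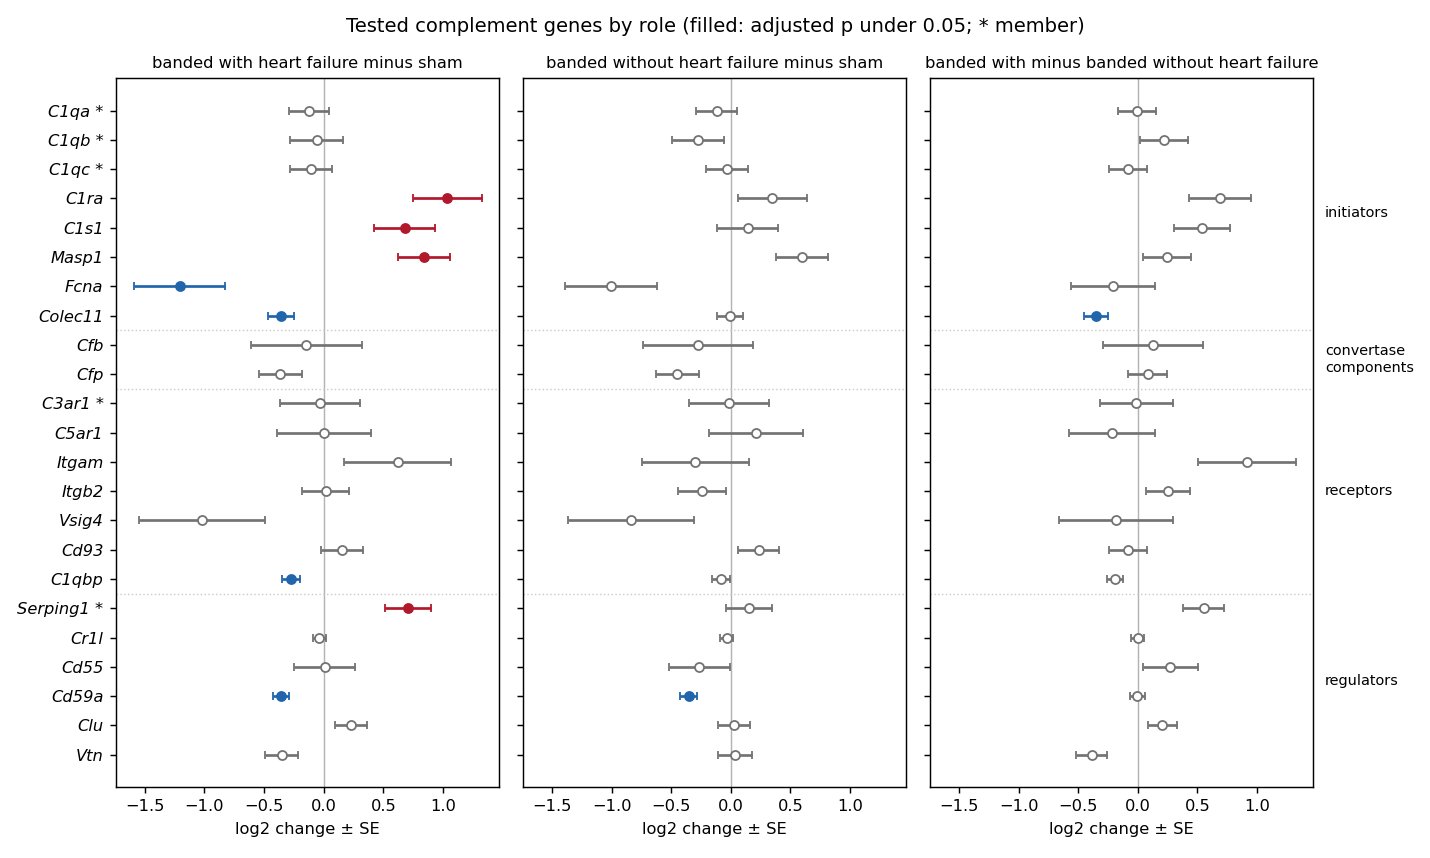
Log2 change with its SE for the 23 complement genes tested, ordered by role, in the 3 comparisons; filled points have an adjusted p under 0.05, red higher and blue lower, and asterisks mark the members. In heart failure against sham 4 genes are filled red and 4 blue, while 1 gene is filled blue in each of the other comparisons.

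Markers of the cells known to make these proteins were set beside the members. Of 18 macrophage markers, 1 was called higher in failing hearts against sham, Cx3cr1 (0.79, limma adjusted p = 0.0351), and 1 lower, Folr2 (-1.70, adjusted p = 0.000592). Of all genes, 20.4% were called higher and 18.9% lower there. In each of the other comparisons 0 macrophage markers were called, with 2 unadjusted p under 0.05 in banded hearts without failure and 1 between the banded groups. All genes called in those comparisons were 17.4% and 9.48%. The mean log2 signal of the list ran from 8.20 to 8.91 in failing hearts, from 8.37 to 8.66 in banded hearts without failure and from 8.17 to 9.46 in sham hearts. Macrophage markers were thus highest in the same sham heart as the C1q chains; their part in the C1q signal was not tested.

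Some fibroblast markers were called higher in each comparison. Serping1 was called in failing hearts against sham alone, with 0.55 between the banded groups (limma adjusted p = 0.0532). Whether Serping1 differed from these markers was not tested. Of 11 fibroblast markers tested, 9 were higher in failing hearts against sham, 6 in banded hearts without failure and 5 between the banded groups. In each comparison 0 were lower. All genes called in either direction were 39.3%, 17.4% and 9.48% in these comparisons. Col1a1, a chain of type I collagen, rose 5.81-fold and Mfap5, a microfibril protein, 3.99-fold in failing hearts against sham (limma adjusted p = 1.65e-06 and 5.26e-06). The mean of the list ran from 11.32 to 11.83 in failing hearts, from 10.60 to 11.35 in banded hearts without failure and from 10.15 to 11.04 in sham hearts, where sham mouse 3 was the highest. The part of fibroblast number in the Serping1 change was not tested.

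In failing hearts against sham, 3 of 9 endothelial markers were higher and 0 lower, and 3 of 9 smooth muscle and pericyte markers were higher and 2 lower. Of 10 cardiomyocyte markers, 0 were higher and 5 lower. Of all genes, 20.4% were called higher and 18.9% lower in that comparison, and 9.48% in either direction between the banded groups. Of 4 leukocyte, monocyte and neutrophil markers 0 were called in any comparison by limma, and 0 had an unadjusted p under 0.05. Of 3 atrial markers 1 was called, lower in failing hearts than in banded hearts without failure. Their median change was -1.71 in failing hearts against sham and -3.81 against banded hearts without failure, their mean ran from 3.68 to 13.68 over the failing hearts, and their part in the other results was not tested.

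Within each banded group, the members were set against the left ventricular and lung weights over tibia length, as labelled. Of 20 relations, 0 passed the adjustment, the lowest adjusted exact permutation p being 0.394 for Pearson and 0.294 for Spearman coefficients. The nearest for Serping1 was with the left ventricular index in banded mice without heart failure, with r = 0.77 (exact permutation p = 0.0631) and rho = 0.75 (exact permutation p = 0.0663), and r = 0.54 without the 2 mice farthest from the median. An unadjusted p under 0.05 was reached by 1 Pearson and 3 Spearman coefficients. In failing hearts C1qa had r = 0.67 (exact permutation p = 0.0976) and rho = 0.79 (exact permutation p = 0.0480) with the left ventricular index, and r = 0.17 without the 2 farthest mice. With the lung index in failing hearts it had r = 0.42 (exact permutation p = 0.351) and rho = 0.86 (exact permutation p = 0.0238), and r = 0.89 without the 2 farthest. In banded mice without heart failure C1qb had r = -0.57 (exact permutation p = 0.0492) and rho = -0.82 (exact permutation p = 0.0341) with the lung index, and r = -0.46 without the 2 farthest. With 7 mice a group, relations of moderate strength were not detectable.

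**Figure D5:**
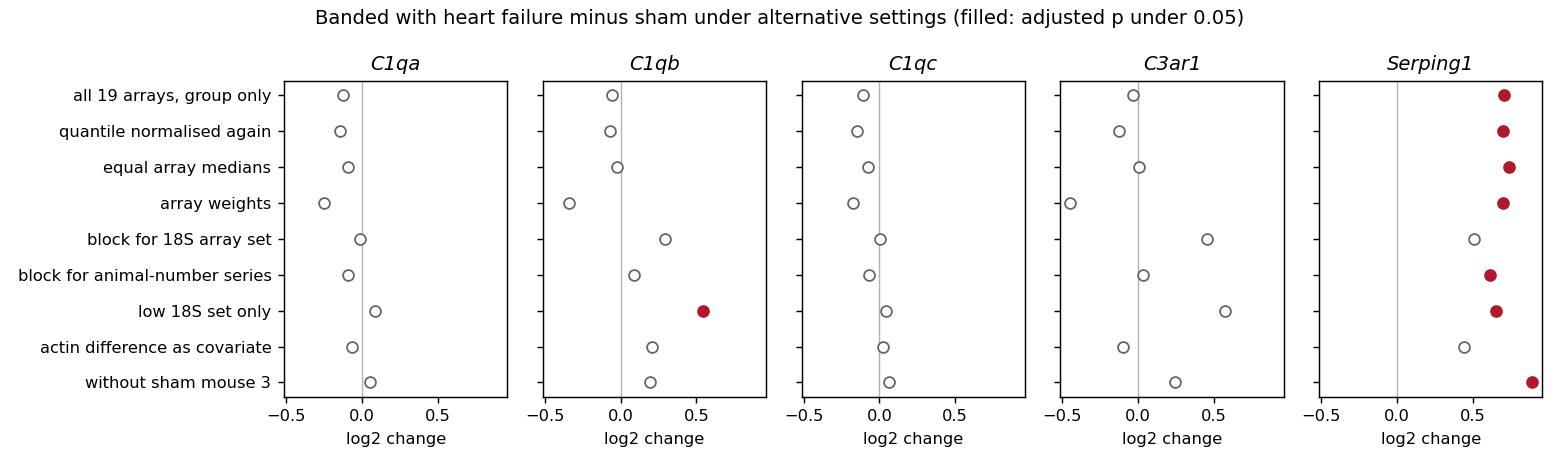
Log2 change of each member gene in heart failure against sham under the main setting and 8 alternatives; filled points have an adjusted p under 0.05. Serping1 lies between 0.45 and 0.89 throughout and is filled in 7 of 9 settings, while the C1q chains and C3ar1 lie on both sides of 0 and C1qb is filled in the low 18S set alone.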

How the data were processed

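Left ventricular RNA of 19 mice was measured on 19 arrays with 45101 probe sets. The authors deposited log2 values made with GCRMA, per the submitters' processing notes, a method that corrects background, normalises across arrays and summarises probes. The sources used here give no version for it. This method draws dim probe sets to a common floor and compresses their changes: 50.5% of the values were under 3, and array medians lay between 2.85 and 2.99. Arrays have no read depth; how many there are bounds the precision.

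Gene names came from GEO's annotation of the platform: 34958 probe sets had 1 symbol, 932 several and 9211 were not listed; 34754 gene IDs were found in the RefSeq table. Probe sets above 4 on the log2 scale in at least 5 arrays were kept (20497), and the brightest on average over the 19 arrays represented its gene. The other probe sets were tested in a fit over all 20497. One fit with limma 3.58.1 under R 4.3.3 (lmFit, then eBayes, with group as the single term and all 19 arrays) gave the 3 comparisons, with Benjamini-Hochberg adjustment over 10733 genes and a threshold of 0.05. The fit was tested on simulated data with 200 changed genes. Exact two-sided permutation tests used scipy 1.17.1 with Python 3.11.15, and figures matplotlib 3.10.9. The labels do not name litters or cages, so p-values measure the spread between these mice.

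The members and the gene lists were chosen with earlier results of these data known. The text names all members, the pathway genes called in any comparison, the 3 genes most like each member, and called markers, at most 2 of a list where over 5 passed; other genes were named after their values were seen. The series of animal numbers are gaps in the labels' numbering, not a stated batch. Labelled weights are in mg, but the labelled index is larger than that weight over tibia length, so its unit is uncertain. Alternatives were other filters, probe sets, scalings, weights, blocks and array sets, and each mouse left out in turn.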

Additional observations from a re-analysis of the deposited data

How the results depend on the processing

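Changes below are log2 values. The rise of Serping1 in failing hearts against sham kept its direction in all alternatives and its call in 30 of the 33 that gave a test. The call was lost with the 18S set as a block (0.51), with the actin covariate (0.45) and, at the same 0.71, in the exact permutation test (adjusted p = 0.0947). Leaving out single mice gave 0.57 to 0.89, all called. In banded hearts without failure against sham, Serping1 turned to -0.11 with the actin covariate and -0.10 in the high 18S set, and ran from 0.02 to 0.34 without single mice. Between the banded groups it passed with quantile normalisation (0.56), a trended robust fit (0.55), array weights (0.55), the actin covariate (0.56), only those groups in the fit (0.55), and without sham mouse 3 and with the animal-number block (0.49); without single mice it ran from 0.48 to 0.62, with 5 of 19 called (without banded mice 1, 3 or 4 that had no failure, or sham mice 2 or 3). The cause of each lost or gained call was not tested.

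The C1q chains and C3ar1 lay near 0 and changed sign under many settings. In failing hearts against sham, C1qa was 0.088 in the low 18S set, 0.061 without sham mouse 3 and with the animal-number block, and 0.28 within the second animal series. C1qb was 0.29 with the 18S block, 0.087 with the animal-number block, 0.21 with the actin covariate, 0.54 in the low 18S set, 0.27 without sham mouse 3 and with the animal-number block, and 0.52 and 0.45 within the second and the last series. C1qc was 0.0045 with the 18S block, 0.024 with the actin covariate, 0.043 in the low set, 0.074 without sham mouse 3 and with the animal-number block, and 0.34 in the second series. C3ar1 was 0.0028 with equal array medians, 0.46 with the 18S block, 0.035 with the animal-number block, 0.57 in the low set, 0.26 without sham mouse 3 and with the animal-number block, 0.14 by another probe set, and -1.09, 0.70 and 0.89 within the 3 series.

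In banded hearts without failure against sham, C1qa was 0.068 in the low set, 0.068 without sham mouse 3 and with the animal-number block, and 0.29 in the second series. C1qb was 0.20 in the low set and 0.32 in the second series. C1qc was 0.016 with equal medians, 0.0030 with the 18S block, 0.11 with the actin covariate, 0.060 in the low set and 0.15 without sham mouse 3 and with the animal-number block. C3ar1 was 0.031 with the mean of probe sets, 0.029 with equal medians, 0.12 with the 18S block, 0.026 with the animal-number block, 0.29 in the low set, 0.27 without sham mouse 3 and with the animal-number block, and 0.16 by another probe set. Between the banded groups, C1qa was 0.071, 0.0043 and 0.020 with the 18S block, the animal-number block and in the low set, C1qb was -0.031 by another probe set, and C1qc was 0.0016 with the 18S block. C3ar1 was 0.33, 0.0086 and 0.28 with the 18S block, the animal-number block and in the low set, and -1.06 and 0.83 in the first and the last series. C1qb in the low set, failing against sham, was the only one of these called.

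Without single mice, the changes in failing hearts against sham, in banded hearts without failure against sham and between the banded groups ran from -0.24 to 0.057, -0.24 to 0.064 and -0.089 to 0.064 for C1qa; from -0.22 to 0.19, -0.44 to -0.03 and 0.18 to 0.30 for C1qb; from -0.24 to 0.063, -0.16 to 0.14 and -0.16 to -0.01 for C1qc; and from -0.24 to 0.24, -0.19 to 0.26 and -0.23 to 0.16 for C3ar1. None was called.

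All genes called, 4220, 1865 and 1017 in the 3 comparisons, became 2705 and 1199 for the first and second with the actin covariate, 2670, 343 and 149 in the low set, and 1914 for the last with array weights; without single mice they ran from 3538 to 4388, 1185 to 2200 and 508 to 1146, with 1185 in the second without sham mouse 2 and, in the last, 508, 599 and 672 without banded mouse 5 that had no failure, failing mouse 2 and banded mouse 6 that had no failure. Complement genes called, 8, 1 and 1, became 3, 2 and 0 with the 18S block. In the first comparison 2 passed with the actin covariate. In the second, 2 passed with quantile normalisation, equal medians, array weights, the animal-number block with or without sham mouse 3, and in the high set, and 0 in the low set. In the last, 0 passed without a filter and in the low set, 2 with the mean of probe sets, quantile normalisation and the trended robust fit, and 3 with equal medians, array weights, the actin covariate, those groups alone, and without sham mouse 3 with the animal-number block. Without single mice they ran from 6 to 9, 1 to 3 and 0 to 3. Fibroblast markers called in failing hearts against sham stayed at 8 or 9 of 11, while in banded hearts without failure they ranged from 1 in the high set to 7 without single mice. Without the 2 mice farthest from the median, r turned to 0.093 and 0.49 for Serping1 and the lung index in failing and non-failing banded mice, and to -0.20 and -0.31 for C1qa and C1qb with the ventricular index in the non-failing.

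The median over all genes moved by under 0.1 under each scaling. The number of arrays limits the precision: the low set held 2 sham mice, and the high set held no failing heart. Alternatives with sham mouse 3 removed and the animal-number block added together were chosen after seeing the data. No paired analysis was possible because the labels carry unique animal numbers; the mouse numbers used here follow the order of deposit, only name the mice and pair none across groups.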
